A study of Mus musculus with 24 samples.

Results

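This account covers 10 genes of glucose uptake and glycolysis in mouse T helper 2 (Th2) cells and bone marrow-derived macrophages (BMDM): Slc2a1, Hk2, Pfkl, Pfkp, Pfkfb3, Aldoa, Tpi1, Pgk1, Eno1 and Ldha. They were found by gene symbol in the per-library count tables and are 10 of 23420 gene symbols counted in each of 24 libraries. The libraries fall into 10 groups. Beside the members, 23 further glycolysis genes were examined, mostly isozymes and transporters of the same steps.

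The study examined loss of TDG and of the TET enzymes in adult C57BL/6 mice. TET enzymes oxidise 5-methylcytosine to 5-hydroxymethylcytosine, 5-formylcytosine and 5-carboxylcytosine. TDG is a DNA glycosylase that removes 5-formylcytosine and 5-carboxylcytosine. TDG iKO mice carried floxed Tdg, and TET iTKO mice carried floxed Tet1, Tet2 and Tet3. Both carried a tamoxifen-inducible Cre and a Cre reporter at Rosa26 (H2B-EGFP/GPI-mCherry in the Tdg line, EYFP in the Tet line). Each knockout was paired with its own WT controls, which makes a Tdg cohort and a Tet cohort, and tamoxifen was used in knockout and control animals alike. BMDM were grown from bone marrow in L929-conditioned medium with M-CSF and were collected at 0 h or 6 h of Kdo2-lipid A (KLA), a Toll-like receptor 4 agonist. Each cohort, genotype and time has 2 libraries. Th2 cells came from the Tdg cohort only: naive CD4+ T cells of spleen and lymph nodes were sorted and activated through CD3 and CD28 with IL-4 and an antibody against IFN-γ. They were then expanded in IL-2, and each genotype has 4 libraries.

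Library totals ran from 4982950 to 26657729 counts with a median of 14853861. The lowest total was that of replicate 2 of WT BMDM at 0 h in the Tdg cohort. This library also gave the lower Slc2a1 and Pfkfb3 values of its group. The part of its depth in the results was not tested. Replicates 3 and 4 of the Th2 cells differed by little more than sampling noise in each genotype. Their chi-square per gene was 1.34 (TDG iKO) and 1.51 (WT), whereas Th2 pairs otherwise gave 21.3 to 218. They were counted as 1 sample, the third Th2 sample below, so that n = 3 in each genotype. Values below are raw counts divided by a size factor per library (normalised counts), and the third Th2 value is the mean of replicates 3 and 4. The tests used the summed counts of these replicates, with size factors estimated in each fit. No label says that replicates are separate animals, so p-values measure only the spread between these samples, which may be technical. Counts summed over a gene cannot show the loss of floxed exons. Tet2 had 702.1 to 736.9 in TET iTKO and 505.6 to 602.7 in WT at 0 h. Tdg had at most 9.22 normalised counts in any sample, WT included, too few to read its loss. The paper states that deletion was efficient and measured it by qRT-PCR of the floxed exons in Th2 cells. It also measured Tet and Tdg transcripts of BMDM by qRT-PCR. The 7 T cell markers summed to between 22574 and 32003 normalised counts in Th2 libraries and 112.2 to 373.9 in BMDM. The 7 macrophage markers summed to between 309232 and 400338 in BMDM and 114.8 to 640.8 in Th2 libraries, where Csf1r was at 0.

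Glycolysis splits glucose into pyruvate in the cytosol. Glucose enters through facilitative transporters, is trapped by hexokinase and is committed to breakdown by phosphofructokinase. The later enzymes, which work on trioses, release ATP and NADH, and lactate dehydrogenase reduces the pyruvate to lactate. Macrophages exposed to Toll-like receptor ligands and T cells activated through their receptor are both known to raise glucose uptake and lactate release, and HIF-1 and MYC are known activators of many of these genes.

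The start regions of 6 members are shown because the members that moved most with KLA (Slc2a1, Hk2, Pfkl and Pfkfb3) and a pair that moved less (Pfkp and Ldha) can be read beside the values that follow. Each is a RefSeq promoter of the GRCm38.p6 table, 250 bases before to 50 bases after an annotated start, given here by the position of its exact match in NCBIM37 (mm9), the build of the counts. Capitals mark every ACGTG or GCGTG, the core of the hypoxia response element, on either strand, where the opposite strand reads CACGT or CACGC.
Slc2a1, chr4:118781100-118781399, plus strand: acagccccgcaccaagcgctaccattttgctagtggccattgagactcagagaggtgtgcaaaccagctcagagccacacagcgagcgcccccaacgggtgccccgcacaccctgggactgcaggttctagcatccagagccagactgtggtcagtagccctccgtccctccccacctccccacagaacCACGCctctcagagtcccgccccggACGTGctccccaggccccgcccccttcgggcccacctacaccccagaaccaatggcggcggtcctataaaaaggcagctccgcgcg
Hk2, chr6:82724399-82724698, minus strand: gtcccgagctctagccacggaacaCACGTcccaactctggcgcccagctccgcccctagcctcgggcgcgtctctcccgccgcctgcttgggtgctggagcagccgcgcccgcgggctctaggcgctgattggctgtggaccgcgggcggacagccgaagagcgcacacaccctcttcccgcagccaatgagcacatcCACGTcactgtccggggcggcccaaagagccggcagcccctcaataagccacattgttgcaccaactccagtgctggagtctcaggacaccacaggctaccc
Pfkl, chr10:77472503-77472802, minus strand: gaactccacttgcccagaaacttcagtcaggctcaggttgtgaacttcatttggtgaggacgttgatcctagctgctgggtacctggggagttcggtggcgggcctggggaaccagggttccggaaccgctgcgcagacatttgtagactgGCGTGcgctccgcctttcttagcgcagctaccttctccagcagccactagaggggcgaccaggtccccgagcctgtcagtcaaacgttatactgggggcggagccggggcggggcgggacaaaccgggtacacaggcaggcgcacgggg
Pfkfb3, chr2:11423668-11423967, minus strand: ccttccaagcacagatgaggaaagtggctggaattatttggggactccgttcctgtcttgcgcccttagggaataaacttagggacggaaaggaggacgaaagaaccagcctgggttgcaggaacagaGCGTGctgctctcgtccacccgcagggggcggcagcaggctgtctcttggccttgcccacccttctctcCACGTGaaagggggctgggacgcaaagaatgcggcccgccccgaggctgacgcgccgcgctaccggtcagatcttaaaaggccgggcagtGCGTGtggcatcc
Pfkp, chr13:6647968-6648267, minus strand: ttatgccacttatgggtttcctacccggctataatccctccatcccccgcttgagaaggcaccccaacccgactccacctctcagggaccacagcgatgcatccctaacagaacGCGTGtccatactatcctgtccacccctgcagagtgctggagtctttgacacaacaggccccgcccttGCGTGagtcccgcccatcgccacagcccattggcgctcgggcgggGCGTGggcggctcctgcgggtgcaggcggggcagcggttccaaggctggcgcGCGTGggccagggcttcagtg
Ldha, chr7:54100924-54101223, plus strand: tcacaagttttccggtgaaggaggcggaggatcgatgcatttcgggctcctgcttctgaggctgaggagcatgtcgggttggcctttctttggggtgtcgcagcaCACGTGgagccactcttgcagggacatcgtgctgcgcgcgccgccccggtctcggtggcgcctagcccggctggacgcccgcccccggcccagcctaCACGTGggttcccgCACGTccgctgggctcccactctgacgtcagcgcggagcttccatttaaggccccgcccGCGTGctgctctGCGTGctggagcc
The Slc2a1 window holds 1 ACGTG and 1 GCGTG, the Hk2 window holds 2 ACGTG, the Pfkl window holds 1 GCGTG and the Pfkp window holds 4 GCGTG. In the Pfkfb3 window shown 1 E-box (CACGTG, the letters that MYC is known to bind) reads ACGTG on both strands, beside 2 GCGTG. The Ldha window shown holds 5 ACGTG, among them those of 2 E-boxes, and 2 GCGTG. Pfkfb3 and Ldha each have another promoter that is not shown. That of Pfkfb3 (chr2:11475507-11475806) holds 1 ACGTG and that of Ldha (chr7:54102202-54102501) holds 2 GCGTG, and neither holds an E-box. Among the 16 RefSeq promoters of the 10 members, 8 held ACGTG, 9 held GCGTG and 14 held either (87.5%), while 43.8% of all 32851 promoters of this length held either. Some windows of Aldoa overlap one another, as do some of Eno1, so the same letters are counted more than once. By member, 9 of 10 held either. E-boxes stood in 2 of the 16 and in 7.15% of all promoters, and a kappa B consensus stood in 1 of the 16, that of Pgk1, and in 8.46% of all promoters. The Tpi1 promoter held none of these letters. A match describes the letters in the window and is not a measured binding site.

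**Figure D1:**
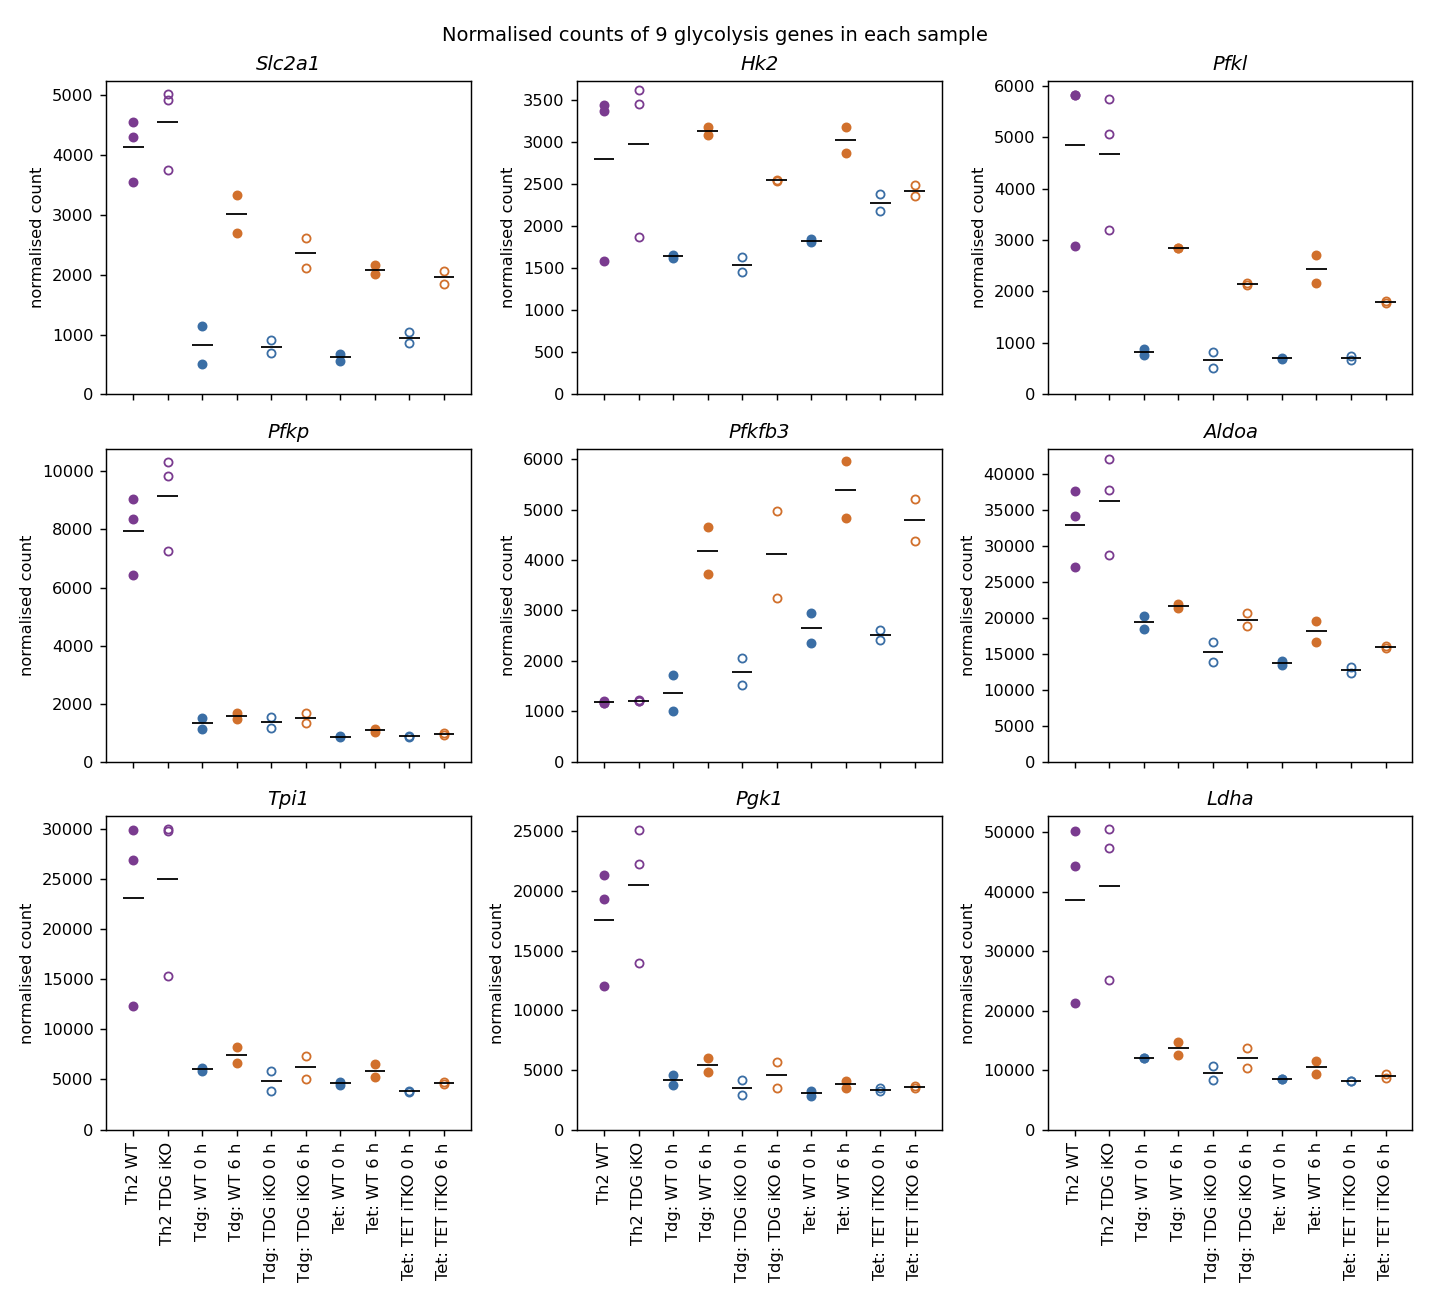
Normalised count of glycolysis genes in each sample, by group, with Th2 samples in purple, BMDM at 0 h in blue and at 6 h of KLA in orange, WT filled and knockouts open, and the group mean as a black line. Slc2a1 and Pfkl lie higher at 6 h than at 0 h in every BMDM group, and Pfkfb3 is not higher in Th2 samples.

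With KLA the transcripts of the glucose transporter Slc2a1, of Pfkl and of Pfkfb3 rose in every BMDM group, while those of the later steps moved less. Of the 10 members 9 could be compared. All 9 had a higher normalised count at 6 h than at 0 h in 8 of 8 pairs of same-numbered libraries, which 20.1% of the 10133 genes with a mean of at least 50 normalised counts also had. Tested with DESeq2 at an adjusted p of 0.05, 4 of 9 members rose in WT BMDM of the Tdg cohort, where 8.73% of tested genes were called and 5.35% were called higher. In TDG iKO BMDM 4 of 9 rose, where 6.95% were called and 4.2% were called higher. In the Tet cohort all 9 rose in WT BMDM, where 23.6% of genes were called and 12.8% were called higher. In TET iTKO BMDM 5 of 9 rose, where 24.7% were called and 13% were called higher. The median log2 fold change of the 9 members was 0.39 in both genotypes of the Tdg cohort, 0.41 in Tet WT and 0.29 in TET iTKO. It stood beside medians of -0.01, 0.02, 0.00 and -0.00 over all tested genes with a mean of at least 50. No member was called when the WT response was compared between the cohorts (DESeq2 interaction), with differences of -0.59 for Pfkfb3 to 0.24 for Aldoa and 95% bounds from -1.39 to 1.11. In that comparison 2 of 16422 genes, or 0.0122%, were called, and edgeR called 0 genes.

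Gene positions are those of NCBIM37. Slc2a1 (4:118781316-118809935, plus strand) encodes GLUT1, the transporter that carries glucose into most activated cells. In the Tdg cohort it had 1136 and 514.7 normalised counts in WT at 0 h and 3340 and 2702 at 6 h, and in TDG iKO 903.4 and 692.3 at 0 h and 2611 and 2117 at 6 h. In the Tet cohort it had 681.6 and 557.9 in WT at 0 h and 2165 and 2004 at 6 h, and in TET iTKO 858.9 and 1035 at 0 h and 1850 and 2059 at 6 h. Every 6 h library stood above every 0 h library, over both cohorts and genotypes. On the log2 scale Slc2a1 rose by 1.87 ± 0.40 (SE) in Tdg WT (DESeq2 adjusted p = 0.000112), by 1.58 ± 0.40 in TDG iKO (adjusted p = 0.00216), by 1.76 ± 0.14 in Tet WT (adjusted p = 6.28e-34) and by 1.05 ± 0.14 in TET iTKO (adjusted p = 1.64e-12). The rise in Tdg WT was 2.53 without 0 h replicate 1 and 1.42 without 0 h replicate 2, called in both fits. The DESeq2 call in TDG iKO was lost without 0 h replicate 2 (adjusted p = 0.117) or 6 h replicate 1 (adjusted p = 0.0688).

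Hk2 (6:82675019-82724448, minus strand) encodes the inducible hexokinase, which phosphorylates glucose and is bound to mitochondria. It had 1625 and 1663 normalised counts in Tdg WT at 0 h and 3179 and 3087 at 6 h, and in TDG iKO 1456 and 1635 at 0 h and 2557 and 2538 at 6 h. In the Tet cohort WT libraries had 1809 and 1847 at 0 h and 3188 and 2870 at 6 h, whereas TET iTKO libraries had 2181 and 2387 at 0 h and 2363 and 2488 at 6 h. The times were well separated in the other 3 BMDM groups, and in TET iTKO the higher 0 h library exceeded the lower 6 h library. Hk2 rose by 0.93 ± 0.23 on the log2 scale in Tdg WT (DESeq2 adjusted p = 0.00175), by 0.73 ± 0.23 in TDG iKO (adjusted p = 0.0287) and by 0.74 ± 0.11 in Tet WT (adjusted p = 3.71e-10). The estimate in TET iTKO was 0.09 (DESeq2 adjusted p = 0.657). In TDG iKO the DESeq2 call of Hk2 was lost without any one of the 4 libraries compared (adjusted p of 0.22 to 0.473), in a fit of those 4 alone (adjusted p = 0.0831) and with edgeR (adjusted p = 0.25). In Tdg WT it was lost without 6 h replicate 1 (DESeq2 adjusted p = 0.103) or replicate 2 (0.154), in a fit of those 2 groups alone (0.0748) and with edgeR (0.0626).

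Pfkl and Pfkp encode the liver and platelet isoforms of phosphofructokinase, the enzyme that commits fructose 6-phosphate to glycolysis. Pfkl (10:77449692-77472828, minus strand) had 871.6 and 770.5 normalised counts in Tdg WT at 0 h and 2843 and 2845 at 6 h, and in TDG iKO 814.7 and 515.2 against 2126 and 2163. Tet WT libraries had 714.8 and 689.2 at 0 h and 2700 and 2165 at 6 h, and TET iTKO libraries had 740 and 676 against 1822 and 1778. All 6 h libraries were far above all 0 h libraries. Pfkl rose by 1.79 ± 0.31 on the log2 scale in Tdg WT (DESeq2 adjusted p = 4.61e-07), by 1.70 ± 0.31 in TDG iKO (adjusted p = 1.92e-06), by 1.80 ± 0.13 in Tet WT (adjusted p = 8.47e-39) and by 1.35 ± 0.14 in TET iTKO (adjusted p = 1.29e-21). It was called in every fit with a library left out. Pfkp (13:6579014-6648023, minus strand) moved little: it had 1511 and 1148 in Tdg WT at 0 h against 1682 and 1490 at 6 h, and 876.4 and 843.3 in Tet WT at 0 h against 1130 and 1040 at 6 h. Its 0 h and 6 h ranges overlapped in the Tdg WT group and did not in the Tet WT group. The log2 fold change was 0.34 ± 0.13 in Tet WT (DESeq2 adjusted p = 0.0297), a call lost without any one of the 4 libraries (adjusted p of 0.0627 to 0.261) and in a fit of those 4 alone (0.0548). It was 0.25, 0.15 and 0.15 in Tdg WT, TDG iKO and TET iTKO, none of them called.

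Pfkfb3 (2:11393057-11423728, minus strand) encodes a kinase that makes fructose 2,6-bisphosphate, the strongest activator of phosphofructokinase. It had 1728 and 1014 normalised counts in Tdg WT at 0 h and 3726 and 4649 at 6 h, and in TDG iKO 1515 and 2054 against 3246 and 4977. In the Tet cohort it had 2360 and 2954 in WT at 0 h against 4826 and 5958 at 6 h, and in TET iTKO 2614 and 2409 against 5205 and 4384. Each group was higher at 6 h, and its replicates were spread more widely in the Tdg cohort than those of Hk2. The rise was 1.61 ± 0.38 on the log2 scale in Tdg WT (DESeq2 adjusted p = 0.000614), 1.21 ± 0.38 in TDG iKO (adjusted p = 0.0232), 1.03 ± 0.14 in Tet WT (adjusted p = 1.27e-11) and 0.93 ± 0.14 in TET iTKO (adjusted p = 1.17e-09). The DESeq2 call in Tdg WT was lost without 6 h replicate 2 (adjusted p = 0.102). The call in TDG iKO was lost with DESeq2 without 0 h replicate 1 (adjusted p = 0.381), 0 h replicate 2 (adjusted p = 0.057) or 6 h replicate 2 (adjusted p = 0.55), and with edgeR (adjusted p = 0.0594).

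Aldoa (7:133938748-133944265, minus strand) encodes aldolase A, which cleaves fructose 1,6-bisphosphate into trioses. It had 18506 and 20228 normalised counts in Tdg WT at 0 h against 21321 and 21863 at 6 h, and 16605 and 13931 in TDG iKO against 20615 and 18848. Tet WT libraries had 14026 and 13401 at 0 h against 19586 and 16644 at 6 h, and TET iTKO libraries had 12293 and 13113 against 15819 and 16097. Times did not overlap within any group, but the steps were small. Aldoa rose by 0.41 ± 0.10 on the log2 scale in Tet WT (DESeq2 adjusted p = 0.000619) and by 0.33 ± 0.10 in TET iTKO (adjusted p = 0.00826). It was at 0.16 and 0.38 in Tdg WT and TDG iKO, not called. The DESeq2 call in TET iTKO was lost without 0 h replicate 1 (adjusted p = 0.147), 6 h replicate 1 (adjusted p = 0.0554) or 6 h replicate 2 (adjusted p = 0.0727).

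Tpi1 (6:124760604-124764314, minus strand; triosephosphate isomerase), Pgk1 (X:103382439-103399038, plus strand; phosphoglycerate kinase, an ATP-making step) and Ldha (7:54096845-54110997, plus strand; the lactate dehydrogenase subunit that predominates in lactate-making cells) also rose in Tet WT. In Tet WT, Tpi1 had 4794 and 4454 normalised counts at 0 h against 6495 and 5290 at 6 h. Pgk1 had 3214 and 2838 against 4102 and 3466, and Ldha had 8508 and 8497 against 11568 and 9338. In these libraries 6 h replicate 1 was the highest for all 3 genes, and 6 h replicate 2 still lay above both 0 h libraries. The rises were 0.36 ± 0.12 for Tpi1 (DESeq2 adjusted p = 0.0107), 0.33 ± 0.12 for Pgk1 (adjusted p = 0.0237) and 0.31 ± 0.11 for Ldha (adjusted p = 0.0303). With DESeq2 all 3 calls were lost without 6 h replicate 1 (adjusted p of 0.254, 0.312 and 0.425) and without 0 h replicate 2 (adjusted p of 0.2, 0.357 and 0.194). That of Ldha was also lost without 0 h replicate 1 (DESeq2 adjusted p = 0.192) and in a fit of the 4 libraries alone (0.0536).

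In the other BMDM groups the estimates of these 3 genes were at most 0.39 on the log2 scale. In Tdg WT, Tpi1 had 6188 and 5881 at 0 h against 8225 and 6645 at 6 h, Pgk1 had 4557 and 3722 against 6014 and 4815, and Ldha had 12005 and 11963 against 14749 and 12621. In TDG iKO, Tpi1 had 5830 and 3824 against 7313 and 5086, Pgk1 had 4179 and 2877 against 5671 and 3513, and Ldha had 10724 and 8316 against 13688 and 10299. In TET iTKO, Tpi1 had 3864 and 3758 against 4569 and 4754, Pgk1 had 3229 and 3485 against 3509 and 3616, and Ldha had 8103 and 8116 against 8711 and 9373. The times overlapped for each gene in TDG iKO, where replicate 1 exceeded replicate 2 at both times. Of these values Tpi1 in TET iTKO was called, at 0.29 ± 0.12 (DESeq2 adjusted p = 0.0485), and that call was lost without any one of the 4 libraries (adjusted p of 0.141 to 0.302), with TMM scaling (0.0502) and with a filter on low counts (0.0518).

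Eno1 (4:149610830-149622988, plus strand), which encodes the enolase of most tissues, had 0 to 9 raw counts in every library and is given no fold change. In 72.2% of its 50-base windows the sequence also occurs elsewhere in the genome, at 12 loci in all. The near copy Gm5506 had a mean of 555.1 normalised counts in Th2 WT (272.4 to 829.3) and group means of 131 to 210.2 in BMDM. Such windows made up 92.9% of Pgk1, 29.1% of Ldha, 23.6% of Tpi1, 14.8% of Aldoa and at most 1.19% of Pfkfb3, Pfkl, Slc2a1, Hk2 and Pfkp. The levels of Pgk1, Ldha, Tpi1 and Aldoa are therefore uncertain by the reads that near copies share with them. Genes on the opposite strand overlap exons of Slc2a1 over 105 bases (Gm12868), of Pfkp over 372 (Pitrm1) and of Tpi1 over 34 (Spsb2). Pairs that were not uniquely aligned made up 30.9 to 32.2% of Th2 libraries, 20.6 to 25.8% of Tdg BMDM libraries and 16.6 to 19% of Tet BMDM libraries. Their part in the results was not tested.

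**Figure D2:**
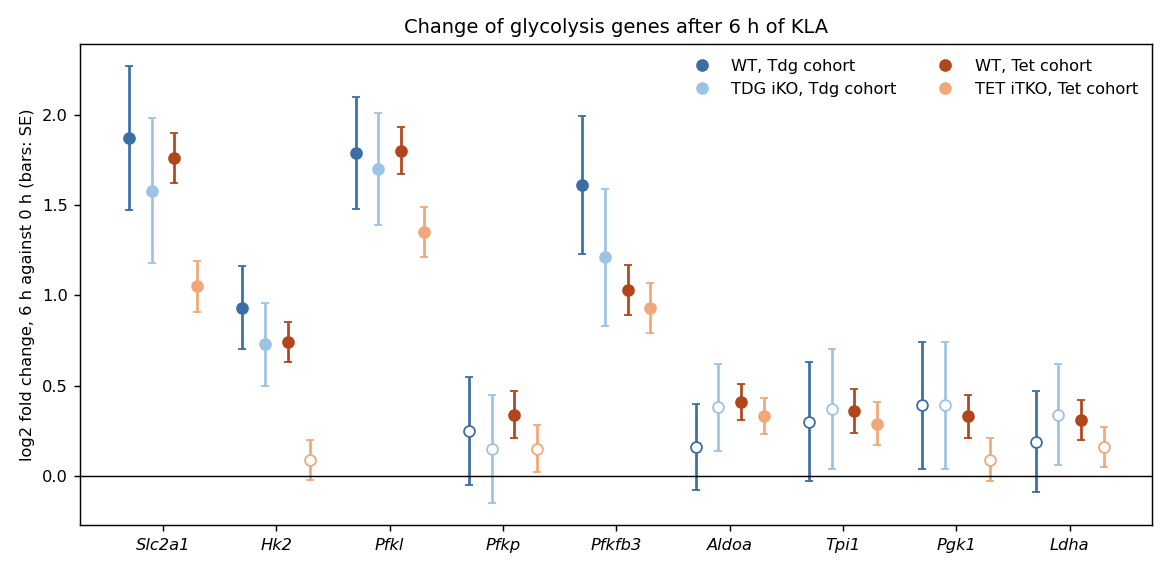
Log2 fold change of each member at 6 h of KLA against 0 h in the 4 BMDM groups, with bars of 1 SE from DESeq2 and filled points where the adjusted p was under 0.05. Slc2a1, Pfkl and Pfkfb3 were called in all 4 groups, with 0.93 to 1.87, and Pfkp, Pgk1 and Ldha in Tet WT alone.

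In TET iTKO BMDM Slc2a1 and Hk2 were higher than in WT before stimulation, and Hk2, Pfkl and Tpi1 were lower after it. At 0 h Slc2a1 had 858.9 and 1035 normalised counts in TET iTKO against 681.6 and 557.9 in WT, a log2 difference of 0.62 ± 0.14 (DESeq2 adjusted p = 0.000569). Hk2 had 2181 and 2387 against 1809 and 1847, a difference of 0.32 ± 0.11 (DESeq2 adjusted p = 0.0475). The genotypes did not overlap for either gene. These were 2 of 9 members called higher at 0 h, where 7.56% of genes were called and 4.42% were called higher. The other 7 lay between -0.28 for Tpi1 and 0.15. In a fit of the 4 libraries at 0 h alone Tpi1 was called lower (-0.28, DESeq2 adjusted p = 0.0391). The DESeq2 call of Hk2 was lost without any one of the 4 libraries (adjusted p of 0.0973 to 0.669) and with TMM scaling (0.0585). The Slc2a1 call was lost with DESeq2 without TET iTKO replicate 2 (adjusted p = 0.181) or WT replicate 2 (adjusted p = 0.137).

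At 6 h the 3 called members were lower in TET iTKO, out of 9, where 6.45% of genes were called and 3.28% were called lower. Hk2 had 2363 and 2488 in TET iTKO against 3188 and 2870 in WT (-0.33 ± 0.11, DESeq2 adjusted p = 0.0464). Pfkl had 1822 and 1778 against 2700 and 2165 (-0.44 ± 0.13, DESeq2 adjusted p = 0.019). Tpi1 had 4569 and 4754 against 6495 and 5290 (-0.34 ± 0.12, DESeq2 adjusted p = 0.0464). For each of the 3 genes both TET iTKO libraries lay below both WT libraries, and WT replicate 1 was the highest of the 4. The estimates of all 9 members were negative, from -0.44 to -0.09, with a median of -0.19 beside -0.01 over all genes with a mean of at least 50. The DESeq2 calls of Hk2, Pfkl and Tpi1 were lost without WT 6 h replicate 1 (adjusted p of 0.44, 0.479 and 0.615), TET iTKO replicate 1 (0.246, 0.0867 and 0.242) or TET iTKO replicate 2 (0.204, 0.255 and 0.229). When DESeq2 was fitted to the 4 libraries at 6 h alone, no member was called (0.209, 0.0753 and 0.197). Without WT 6 h replicate 2 Ldha was called as well (-0.36, DESeq2 adjusted p = 0.0289).

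The KLA response itself was tested with an interaction of genotype and time. It was smaller in TET iTKO for Hk2, which changed by -0.65 ± 0.16 on the log2 scale (DESeq2 adjusted p = 0.0124, edgeR adjusted p = 0.00368). In this comparison 0.429% of genes were called, and 0.38% were called lower. Hk2 was 1 of 9 members. The estimates of all 9 were negative, with a median of -0.20 beside -0.01 over all genes with a mean of at least 50. Slc2a1 gave -0.72 ± 0.20 and was not called (DESeq2 adjusted p = 0.0678). It was called by edgeR (adjusted p = 0.000839) and with the replicate number nested in genotype as a block (DESeq2 adjusted p = 0.000934), in which 2.51% of genes were called. Pfkl gave -0.45 ± 0.19 (DESeq2 adjusted p = 0.779), and the others lay between -0.24 and -0.07. The DESeq2 call of Hk2 was lost without WT 0 h replicate 1 (adjusted p = 0.304), WT 0 h replicate 2 (0.177), TET iTKO 0 h replicate 2 (0.466) or TET iTKO 6 h replicate 1 (0.0923). The estimate lay between -0.72 and -0.57 in all fits with a library left out.

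Markers of other cells moved with the TET genotype as well. The 7 macrophage markers summed to between 309232 and 319324 normalised counts in TET iTKO BMDM and 367450 to 400338 in Tet WT BMDM over both times. The neutrophil and granulocyte progenitor list had 966.5 to 2120 in TET iTKO against 413.1 to 768.5 in WT, and the stromal list had 443.8 to 909.5 against 152.1 to 301.5. The B cell list had 54.6 to 291.1 against 20.8 to 36.3, the haematopoietic progenitor list 56.4 to 307.3 against 19.2 to 40.3 and the dendritic cell list 6.69 to 15.4 against 2.60 to 4.65. For these lists the genotypes did not overlap. The T cell list did overlap, with 211 to 271.2 in TET iTKO against 181.8 to 373.9 in WT, and erythroid markers were at 0. In the Tdg cohort the neutrophil list ran from 414.1 to 6554 in TDG iKO at 0 h, so replicates of the same group also differed. The part of such cells in the TET and TDG results was not tested. In bulk RNA, fewer cells of a type and less RNA per cell cannot be told apart.

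**Figure D3:**
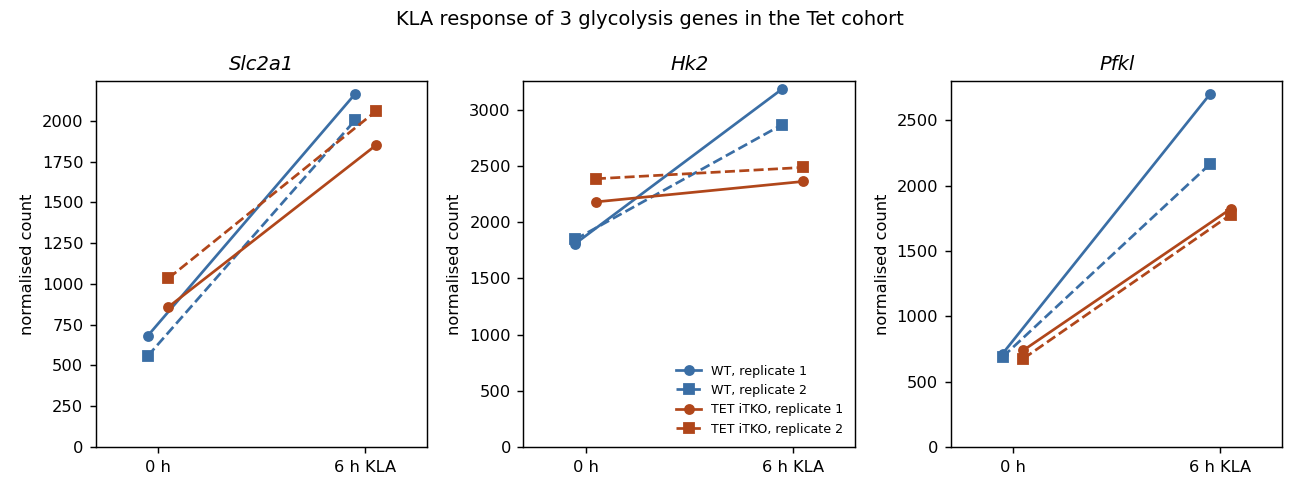
Normalised counts of members, among them Hk2, in Tet cohort BMDM at 0 h and 6 h of KLA, WT in blue and TET iTKO in red, with replicate 1 as circles on solid lines and replicate 2 as squares on dashed lines. Hk2 climbs from 1809 and 1847 to 3188 and 2870 in WT and lies between 2181 and 2488 in all 4 TET iTKO libraries.

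No difference between TDG iKO and WT was called for any member. DESeq2 called 0 of 15026 genes (0%) at 0 h, at 6 h and in the change of the KLA response, and 0 of 15826 (0%) in Th2 cells. At an unadjusted p under 0.05 it called 0 members in each of the 4 comparisons, as did edgeR, beside 265, 34, 37 and 77 genes of the whole tables with DESeq2. The estimates ran from -0.35 (Aldoa) to 0.37 (Pfkfb3) at 0 h, with 95% bounds from -0.97 to 1.12, and from -0.41 (Pfkl) to -0.03 (Pfkfb3) at 6 h, with bounds from -1.13 to 0.71. The change in the KLA response lay between -0.40 (Pfkfb3) and 0.22 (Aldoa), with bounds from -1.45 to 0.98. In Th2 cells the estimates lay between -0.06 (Pfkl) and 0.22 (Pgk1), with bounds from -0.77 to 0.93, so that differences of that size were not detectable at this replication.

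Th2 cells carried much more of most of these transcripts than unstimulated BMDM. The members took 0.829 to 1.52% of all counts in Th2 libraries and 0.25 to 0.445% in BMDM. For 7 of the 9 members, all but Hk2 and Pfkfb3, every Th2 sample of either genotype lay above every BMDM library, those at 6 h included, a pattern that 24.2% of the genes with a mean of at least 50 also had. With DESeq2, 8 of 9 members were higher in Th2 WT than in Tdg WT BMDM at 0 h, where 54.1% of genes were called and 27.4% were called higher. Against Tet WT BMDM at 0 h 7 were higher and 1 was lower, where 57.2% were called, 29.6% higher and 27.6% lower. The median log2 fold change of the members was 1.95 and 2.33, beside 0.01 and 0.00 over all genes with a mean of at least 50. TMM scaling shifted the median of all genes by -0.09 and -0.11. The Th2 and BMDM cells differ in tissue, culture and activation at once, so the source of a difference cannot be told apart. The Tet cohort BMDM came from other animals than the Th2 cells.

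At the entry steps, Slc2a1 had 4305, 4550 and 3545 normalised counts in the 3 Th2 WT samples and 4919, 5015 and 3751 in TDG iKO, against 514.7 to 1136 in all 8 BMDM libraries at 0 h. Against Tdg WT and Tet WT BMDM its log2 difference was 2.33 ± 0.32 (5.04-fold, DESeq2 adjusted p = 1.46e-12) and 2.75 ± 0.31 (6.71-fold, adjusted p = 2.29e-17). The difference from Tdg BMDM was 3.02 without BMDM replicate 1 and 1.85 without BMDM replicate 2, called in both fits. No Th2 sample approached the BMDM values at 0 h, and the highest 6 h library, at 3340, lay not far below the lowest Th2 sample, at 3545. Hk2 had 3451, 3375 and 1586 in Th2 WT and 3454, 3623 and 1872 in TDG iKO, so that the third sample fell within the BMDM range while the others lay above it. The Hk2 difference was 0.78 ± 0.32 against Tdg BMDM (1.72-fold, DESeq2 adjusted p = 0.0275) and 0.62 ± 0.32 against Tet BMDM (1.54-fold, adjusted p = 0.0808). Without the third Th2 sample Hk2 was called against both, at 1.08 (DESeq2 adjusted p = 2.51e-15) and 0.91 (adjusted p = 4.98e-12). The call against Tdg BMDM was lost with DESeq2 without Th2 sample 1 (adjusted p = 0.121), Th2 sample 2 (0.105), BMDM replicate 1 (0.102) or BMDM replicate 2 (0.101). It was also lost in a fit of those 2 groups alone (DESeq2 adjusted p = 0.151) and with edgeR (adjusted p = 0.0634).

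Both phosphofructokinase genes stood high in Th2 cells. Pfkl had 5819, 5826 and 2877 in Th2 WT and 5064, 5742 and 3194 in TDG iKO, and Pfkp had 8371, 9043 and 6448 in WT and 10308, 9829 and 7271 in TDG iKO. For Pfkl the third sample of each genotype was the lowest and in WT lay just above the highest BMDM library at 6 h, 2845, while Pfkp in any Th2 sample was far above every BMDM library. Pfkp was 6.03-fold higher than in Tdg WT BMDM (2.59 ± 0.22, DESeq2 adjusted p = 3.17e-31) and 9.31-fold higher than in Tet WT BMDM (3.22 ± 0.22, adjusted p = 1.78e-48). Pfkl was 5.96-fold (DESeq2 adjusted p = 1.94e-15) and 6.94-fold higher (adjusted p = 2.13e-18). Pfkfb3 was the exception, with 1165, 1198 and 1175 in Th2 WT and 1202, 1221 and 1206 in TDG iKO, values that hardly varied. It was lower in Th2 cells than in Tet BMDM (-1.16 ± 0.26, 0.446-fold, DESeq2 adjusted p = 2.61e-05). Against Tdg BMDM, where the 0 h libraries had 1728 and 1014, the difference was -0.21 ± 0.26 (DESeq2 adjusted p = 0.52). It was -0.57 without BMDM replicate 2 (DESeq2 adjusted p = 0.0395) and 0.23 without replicate 1 (adjusted p = 0.441).

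In the lower part of the pathway, Aldoa had 34167, 37585 and 27054 in Th2 WT and 41982, 37790 and 28760 in TDG iKO, and Tpi1 had 26920, 29922 and 12355 in WT and 29801, 29942 and 15310 in TDG iKO. Pgk1 had 19329, 21334 and 12012 in WT and 25152, 22311 and 13999 in TDG iKO, and Ldha had 44300, 50199 and 21205 in WT and 50556, 47405 and 25109 in TDG iKO. In every case the third sample was the lowest of its genotype and still above every BMDM library. Against Tdg WT BMDM at 0 h the fold was 1.72 for Aldoa, 3.87 for Tpi1, 4.29 for Pgk1 and 3.26 for Ldha, and against Tet WT BMDM it was 2.42, 5.02, 5.84 and 4.57. The DESeq2 adjusted p was 0.000156 for Aldoa against Tdg BMDM and lower for the others. Without the third Th2 sample the Ldha difference was 2.00 and 2.49 on the log2 scale, from 1.70 ± 0.33 and 2.19 ± 0.33, and that of Tpi1 2.26 and 2.63, from 1.95 ± 0.34 and 2.33 ± 0.34.

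**Figure D4:**
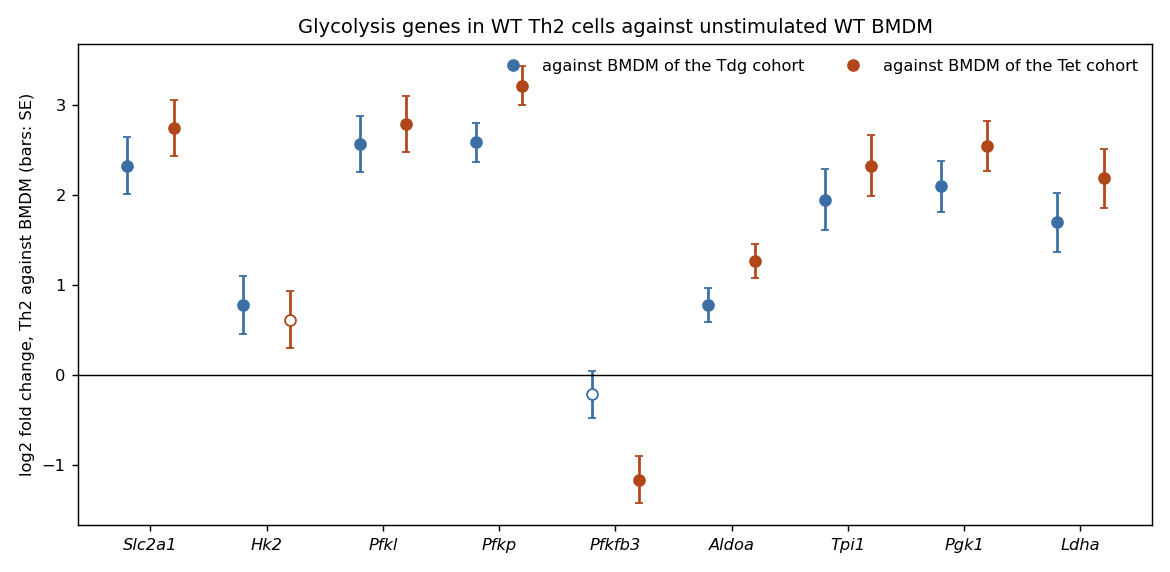
Log2 fold change of each member in Th2 WT cells against WT BMDM at 0 h of the Tdg and Tet cohorts, with bars of 1 SE from DESeq2 and filled points where the adjusted p was under 0.05. Pfkp has the largest values, at 2.59 and 3.22, and Pfkfb3 is the only member with values under 0, at -0.21 and -1.16.

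The order of the members also differed, read as mean normalised counts per kb of the longest annotated protein-coding transcript. In Th2 WT, Ldha (21839 per kb) and Aldoa (21262 per kb) led, followed by Tpi1 at 14353 and Pgk1 at 9621, and the entry genes were far lower, from Pfkp at 1919 and Slc2a1 at 1586 to Pfkl at 1298, Hk2 at 508.6 and Pfkfb3 at 232.5. In Tet WT BMDM at 0 h, Aldoa stood alone at 8853 per kb, ahead of Ldha at 4815, Tpi1 at 2877 and Pgk1 at 1658, and the regulatory kinase Pfkfb3 followed at 523.8, above Hk2 at 331.6, Slc2a1 at 237.7, Pfkp at 207.4 and Pfkl at 188.2. Pfkfb3 was thus the last of 9 in Th2 cells and the highest of the 5 entry genes in these BMDM. In Tdg WT BMDM at 0 h Pfkfb3 did not lead the entry genes, and the 5 lay close together. Pfkp had 320.8 per kb, Slc2a1 316.5, Hk2 298.2, Pfkfb3 270.3 and Pfkl 220.1.

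Several members share their step with isozymes. Their ratios to these were compared as log2 ratios of counts per kb of the longest protein-coding transcript, with 1 added to each count. Genotypes were pooled: the 6 Th2 samples are WT and TDG iKO, and the 8 BMDM libraries at 0 h are WT and knockout of both cohorts. The tests treat them as independent, although same-numbered Th2 samples of the genotypes deviated together (r of 0.47 to 0.89). Slc2a1 outweighed Slc2a3, the high-affinity glucose transporter GLUT3, in BMDM at 0 h (2.67 ± 0.48, SD, n = 8) and not in Th2 samples (-0.60 ± 0.30, n = 6), a difference of -3.27 (exact permutation p = 0.000333, adjusted p = 0.000666). Aldoa exceeded Aldoc, the aldolase known from brain, by 8.83 ± 0.82 in BMDM and 5.34 ± 0.16 in Th2 samples, a difference of -3.49 with the same p-values. The exact permutation p of 0.000333 is the smallest that 6 against 8 samples can give. Hk2 to Hk1, the widely expressed hexokinase, was -0.14 ± 0.27 in BMDM and -1.02 ± 0.47 in Th2 samples, a difference of -0.88 (exact permutation p = 0.000333, adjusted p = 0.000666). Ldha to Ldhb, the subunit of oxidative tissues, was higher in Th2 samples (7.44 ± 0.29 against 6.74 ± 0.39, exact permutation p = 0.00533, adjusted p = 0.00799). Pfkp to Pfkl was not shown to differ (0.73 ± 0.28 against 0.44 ± 0.35, exact permutation p = 0.116, adjusted p = 0.139), and gave 0.38 (exact permutation, adjusted p = 0.0427) without TDG iKO 0 h replicate 2. Against the BMDM of the Tdg and Tet cohorts taken apart these differences were -2.89 and -3.66 for Slc2a1 to Slc2a3, -2.90 and -4.08 for Aldoa to Aldoc, -0.79 and -0.97 for Hk2 to Hk1, 0.72 and 0.69 for Ldha to Ldhb and 0.01 and 0.58 for Pfkp to Pfkl.

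With KLA 4 of these ratios moved in the same direction in 8 of 8 pairs, which pool the cohorts and genotypes. Slc2a1 gained on Slc2a3 by 2.98 ± 0.43 on the log2 scale (SD over 8 pairs), Ldha gained on Ldhb by 1.16 ± 0.48 and Aldoa gained on Aldoc by 0.64 ± 0.29, each higher at 6 h in 8 of 8 pairs. Pfkp to Pfkl changed by -1.44 ± 0.23, higher at 6 h in 0 of 8 pairs. For each the exact permutation p was 0.00781, the smallest that 8 pairs can give, and the adjusted p was 0.0117. Hk2 to Hk1 changed by 0.24 ± 0.43 and was higher in 6 of 8 pairs (exact permutation p = 0.141), and by 0.34 (exact permutation, adjusted p = 0.0312) without the pair of Tdg WT replicate 2. With the 0 h and 6 h labels permuted over all 16 libraries instead of within pairs, Aldoa to Aldoc was not called (exact permutation, adjusted p = 0.167). The changes in the Tdg and Tet cohorts were 3.05 and 2.91 for Slc2a1 to Slc2a3, 1.23 and 1.08 for Ldha to Ldhb, 0.52 and 0.75 for Aldoa to Aldoc, -1.55 and -1.32 for Pfkp to Pfkl and 0.27 and 0.20 for Hk2 to Hk1. As shares of the counts per kb of Slc2a1, Slc2a3 and Slc2a6, Slc2a1 went from 57.7% in Tdg WT and 65.6% in Tet WT at 0 h to 44.5% and 34.6% at 6 h, and Slc2a6 from 31.3% and 24.9% to 54.2% and 64.8%. In Tdg WT the times overlapped, with Slc2a1 at 45.7 to 69.7% and 31.6 to 57.5% and Slc2a6 at 17.1 to 45.5% and 40.6 to 67.8%. In Tet WT they did not. As shares of the phosphofructokinase counts per kb, Pfkl went from 37.9% in Tdg WT and 43.5% in Tet WT at 0 h to 64.7% and 68.9% at 6 h. Pfkp went from 54.8% and 48% to 32.4% and 27.8%. The shares of Ldha and Aldoa hardly moved. Ldha held 99% (Tdg WT) and 98.8% (Tet WT) of the counts per kb of Ldha and Ldhb at 0 h, and 99.5% and 99.4% at 6 h. Aldoa held 99.6% and 99.8% of those of Aldoa and Aldoc at 0 h, and 99.7% and 99.9% at 6 h. The myeloid hexokinase Hk3 held 72.7 to 74.8% of the hexokinase counts per kb in WT BMDM at 0 h, 57.8 to 57.9% at 6 h and 0.0612% in Th2 WT, where Hk1 held 67.2% and Hk2 32.8%. Hk2 went from 12.6 and 12.7% to 21.8 and 22.3% in BMDM.

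**Figure D5:**
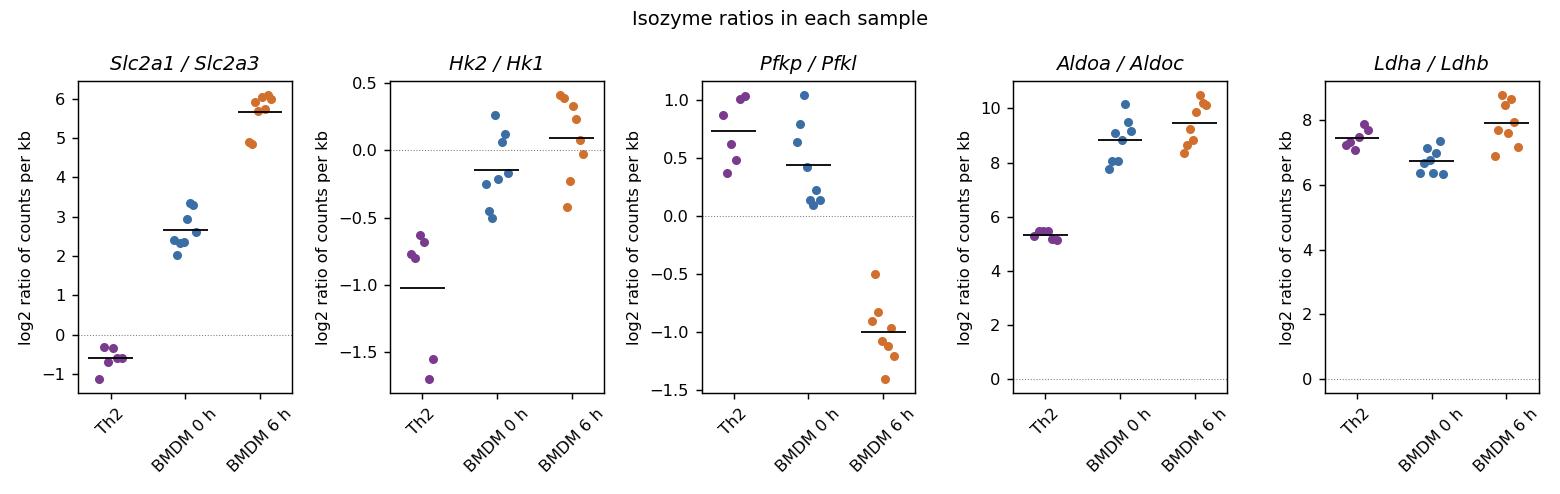
Log2 ratio of counts per kb of each member to an isozyme in 6 Th2 samples, 8 BMDM libraries at 0 h and 8 at 6 h, 1 point per sample with the mean as a line. Slc2a1 to Slc2a3 goes from a mean of -0.60 in Th2 samples to 2.67 in BMDM at 0 h and is higher by 2.98 at 6 h, and Pfkp to Pfkl is lower by 1.44 at 6 h.

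Of 23 other glycolysis genes, 19 were tested for KLA and for the TET genotypes and 20 for Th2 cells against BMDM. With KLA 2 of 19 rose in Tdg WT, where 8.73% of all genes were called, and 2 of 19 in TDG iKO, where 6.95% were. In Tet WT 5 rose and 2 fell, where 23.6% of all genes were called, and in TET iTKO 3 rose and 4 fell, where 24.7% were. Slc2a6, a lysosomal hexose transporter of myeloid cells, rose by 3.37 ± 0.61 in Tdg WT and by 4.09 ± 0.16 in Tet WT on the log2 scale (DESeq2 adjusted p = 4.41e-134 in the latter), and Slc16a3, the lactate exporter MCT4, rose by 1.50 ± 0.28 and 1.96. Slc2a3 fell by 1.50 in Tet WT and by 1.56 in TET iTKO, and the neuronal enolase Eno2 rose by 0.97 and 1.75. By TET genotype 1 of 19 was called in each comparison, beside 7.56% of all genes at 0 h, 6.45% at 6 h and 0.429% in the change of the KLA response. Slc2a6 was higher in TET iTKO at 0 h (1.12), its KLA response changed by -0.98 in TET iTKO (DESeq2 adjusted p = 0.00891), and Hk3 was lower in TET iTKO at 6 h (-0.46). In Th2 WT, 10 of 20 were higher and 3 lower than in Tdg BMDM (54.1% of all genes called), and 11 were higher and 3 lower than in Tet BMDM (57.2% called), led among those higher by Slc2a3 (5.12 and 5.94) and Aldoc (3.31 and 4.92).

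Of 12 genes of the HIF and MYC systems, 11 were tested for KLA and for the TET genotypes and 12 for Th2 cells. Hif1a, the oxygen-sensitive subunit of HIF-1, rose with KLA in all 4 BMDM groups, by 1.69 in Tdg WT, 1.36 in TDG iKO, 1.31 in Tet WT and 1.02 in TET iTKO on the log2 scale. Of the 11, 3 were called in Tdg WT and 1 in TDG iKO, all higher, beside 8.73% and 6.95% of all genes. In Tet WT 4 rose and 3 fell and in TET iTKO 2 rose and 1 fell, beside 23.6% and 24.7% of all genes. Egln3, a prolyl hydroxylase that marks HIF subunits for degradation, rose by 2.64 in Tdg WT, 3.01 in Tet WT and 2.39 in TET iTKO, and Myc fell by 1.42 in Tet WT. In TDG iKO the 1 call was that of Hif1a. The largest estimate there among the listed genes with a mean of at least 50 was 2.46, not called. Mxi1, a MAX partner that opposes MYC, fell by 1.80 in Tet WT and by 1.66 in TET iTKO. Between TET iTKO and WT 2 of 11 were called at each time, beside 7.56% of all genes at 0 h and 6.45% at 6 h. Mxi1 was lower at 0 h (-1.11) and at 6 h (-0.97), Hif1a was higher at 0 h (0.36) and Myc was higher at 6 h (1.22). In Th2 WT, 7 of 12 were higher and 1 lower than in Tdg BMDM and 8 higher and 1 lower than in Tet BMDM, beside 54.1% and 57.2% of all genes called. Among the higher ones were Egln3 (7.14 and 8.17), Epas1, which encodes HIF-2α (7.77 and 6.43), and Myc (3.03 and 3.51).

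Of 7 genes of the pentose phosphate pathway, which draws on glucose 6-phosphate, none was called with KLA in the Tdg cohort. There 8.73% (WT) and 6.95% (TDG iKO) of all genes were called. In Tet WT 2 rose, Pgd by 0.77 and G6pdx by 0.60, and in TET iTKO these rose by 0.44 and 0.38 while Taldo1 fell by 0.28. Of all genes 23.6% were called in Tet WT and 24.7% in TET iTKO. Taldo1 was lower in TET iTKO than in WT at 0 h (-0.35) and at 6 h (-0.46), and Pgd was lower at 6 h (-0.35). Between these genotypes 7.56% of all genes were called at 0 h and 6.45% at 6 h. In Th2 WT, 2 of 7 were higher and 3 lower than in Tdg BMDM, and 3 were higher and 1 lower than in Tet BMDM, beside 54.1% and 57.2% of all genes called. G6pdx, the enzyme of the first step, was lower in Th2 WT than in both (-1.27 and -1.16).

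Of 13 genes of pyruvate entry into mitochondria, 12 were tested for KLA. Pdp1, a phosphatase that activates pyruvate dehydrogenase, fell by 1.53, 1.47, 1.97 and 1.72 in Tdg WT, TDG iKO, Tet WT and TET iTKO. It was the 1 gene called in each genotype of the Tdg cohort, beside 8.73% (WT) and 6.95% (TDG iKO) of all genes. In the Tet cohort 2 others rose, Pdk1, a kinase that inhibits the same complex, by 0.76 in WT and 0.63 in TET iTKO, and Dld, its dehydrogenase component, by 0.35 and 0.43. There 23.6% (WT) and 24.7% (TET iTKO) of all genes were called. Mpc1, a subunit of the mitochondrial pyruvate carrier, was lower in TET iTKO than in WT at 0 h (-0.68), where 7.56% of all genes were called. In Th2 WT, 3 of 12 were higher and 3 lower than in Tdg BMDM and 2 higher and 3 lower than in Tet BMDM, beside 54.1% and 57.2% of all genes called. Among them were Pdk1 (2.32 and 2.97) and Pdp1 (-3.02 and -3.83). Of 7 gluconeogenesis genes 3 were tested for KLA. Pck2, the mitochondrial phosphoenolpyruvate carboxykinase, fell by 1.16 in Tdg WT, and Pcx, which makes oxaloacetate from pyruvate, rose by 1.24 in Tet WT and 1.49 in TET iTKO. Each was the 1 gene of the 3 called in those groups, beside the shares of all genes given above. In Th2 WT both were higher than in Tdg and Tet BMDM, Pcx by 5.45 and 4.27 and Pck2 by 2.10 and 3.13, beside the same 54.1% and 57.2% of all genes called.

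Across the 8 BMDM groups, centred within cohort, the genes whose mean log2 levels followed the average of the 9 members most closely among 9521 genes compared included Egln3 and Tbc1d13 (Pearson r = 0.994 each), Mvp and Ier3 (0.989 each). The 8 group means share cohorts and libraries, and the coefficients are a description of these groups.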

How the data were processed

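Polyadenylated RNA of 24 libraries was sequenced as directional paired-end reads. The authors aligned the reads with HISAT2 to mm9, counted them per gene with HTSeq and deposited raw counts, 1 table per library (their test was DESeq2 1.30.0). The annotation and the strand setting are not given in the sources used here. Rows that name no gene were left out of library sizes. Every per-sample column was used, and columns left unused number 0.

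Counts were fitted with DESeq2 1.42.0 (R 4.3.3) with a Wald test and Benjamini-Hochberg adjustment over all genes tested, in 14 comparisons at an adjusted p of 0.05. The 8 BMDM libraries of a cohort shared a fit, as did the Th2 samples, and the Th2 and BMDM comparisons and the cohort comparison used WT samples alone. Alternatives were edgeR 4.0.16 (quasi-likelihood, TMM), TMM factors, a filter of 10 counts in 2 libraries, only the groups compared, the replicate number as a block, and leaving out each replicate. Scripts were tested on simulated data. Isozyme ratios were compared with two-sided exact permutation tests adjusted over 6 ratios, 1 of which (Eno1 to Eno3) is not reported because Eno1 is near 0. Intervals are at 95%.

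All 10 members are named in each comparison. Of the other lists at most the 4 genes with the largest absolute log2 fold change among those called with a mean of at least 50 were named, and, of the 5 genes most like the members in BMDM group means, all but 1, which is not reported here. The members and lists were chosen with earlier results of these data known. Same-numbered samples deviated together at 0 h and 6 h (r of 0.311 to 0.759 over 10299 genes) and in the Th2 genotypes (0.47 to 0.89), which rests on the data and not on a label.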

Additional observations from a re-analysis of the deposited data

Results flagged for a closer look

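Hk2 was singled out because its KLA response differed between TET iTKO and WT BMDM by the test of the difference itself, at -0.65 ± 0.16 on the log2 scale (DESeq2 adjusted p = 0.0124). WT libraries went from 1809 and 1847 normalised counts to 3188 and 2870, and TET iTKO libraries from 2181 and 2387 to 2363 and 2488.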

How the results depend on the processing

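The number of members called moved by more than 1.5 times as follows. With edgeR 2 members were called for KLA in TDG iKO (4 with DESeq2). For TET iTKO against WT at 0 h, 1 was called with TMM factors and 1 with the replicate block (2 before), and at 6 h 0 were called with only the groups compared (3 before). For the change in KLA response in TET iTKO, 2 were called with TMM factors, 2 with edgeR and 2 with the nested replicate block (1 before). Smaller moves were, with edgeR, 3 for KLA in Tdg WT (4 before) and 7 for Th2 against Tdg BMDM (8 before), with the replicate block, 2 for TET iTKO at 6 h (3 before) and 9 for Th2 against Tet BMDM (8 before), and, with TMM factors or the filter, 4 for KLA in TET iTKO (5 before). With only the groups compared, KLA gave 3 in Tdg WT, 3 in TDG iKO (4 before in each) and 7 in Tet WT (9 before), TET iTKO at 0 h gave 3 (2 before) and Th2 against Tdg BMDM gave 7, as it did with Th2 replicates 3 and 4 separate. Leaving out each replicate gave 2 to 4 members for KLA in Tdg WT, 1 to 2 in TDG iKO, 5 to 8 in Tet WT and 3 to 4 in TET iTKO, 0 to 1 for TET iTKO at 0 h, 0 to 4 at 6 h and 0 to 1 for the change in KLA response, and 0 to 1 for the cohort comparison. The cause was not tested, beyond the smaller number of samples. Values that changed sign when a replicate was left out, none of them called before, were Pfkp for KLA in TDG iKO (-0.04 to 0.36), for TET iTKO at 0 h Pfkl (-0.06 to 0.08), Pfkp (-0.00 to 0.05) and Pfkfb3 (-0.23 to 0.09), at 6 h Pgk1 (-0.21 to 0.03), for the change in KLA response Pfkfb3 (-0.26 to 0.07), Aldoa (-0.18 to 0.04), Tpi1 (-0.20 to 0.09) and Ldha (-0.29 to 0.01), and for Th2 against Tdg BMDM Pfkfb3 (-0.57 to 0.23).

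Counts over all genes moved by more than 1.5 times in some fits. The change in KLA response called 52 genes with DESeq2, 270 with edgeR and 224 with the nested replicate block. KLA in Tdg WT and TDG iKO called 1006 and 821 genes, and 1813 and 1315 with the replicate block, and TET iTKO against WT at 0 h and 6 h called 916 and 762, and 1637 and 1407 with edgeR. TDG iKO against WT called 0 genes, and with the replicate block 4 at 0 h and 15 in Th2 cells, none a member. Where the numbers pair the samples (KLA and the Th2 genotypes), the block changed no call of a member other than that of Slc2a1 in the change of the KLA response. The TDG genotypes of BMDM also deviated together (r of 0.341 and 0.711), and no member was called there with or without the block. The TET genotypes (r of 0.0201 and 0.056) and the cell types (-0.0806 to 0.0565) share only a number. There the block ended the calls of Hk2 at 0 h (0.32, DESeq2 adjusted p = 0.0502) and at 6 h (-0.33, 0.0517) and made one in Th2 against Tet BMDM (0.91, 5.84e-10). BMDM groups of 2 libraries and the lower level of 8 members in the merged Th2 sample limit the precision.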
